A study of Rattus norvegicus with 12 samples.

Results

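Of the 756 microRNA wells measured in rat sperm and in the mammary gland, 54 (41 on the first card, 13 on the second) gave an early signal at nearly the same cycle in both tissues. They were chosen on their raw threshold cycle (Ct), the PCR cycle at which the fluorescence of a well passes a set limit, and 1 cycle earlier corresponds to about 2 times the template. A well was taken when its mean Ct was under 26 over the 6 sperm samples and under 26 over the 6 mammary gland samples, when these means lay less than 2 cycles apart, and when no sample was undetermined, which the data give as 40. The 12 wells of endogenous controls were left out. These levels chose the assays and are given below as a description, with no test, whereas paternal diet was no part of the choice.

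The sperm came from Sprague Dawley male rats fed a lard-based (rats 9, 10 and 11) or a corn oil-based high fat diet (rats 18, 19 and 20). The mammary glands came from 50-day-old female offspring of fathers fed lard (daughters 25.5, 29.1 and 31.2) or corn oil (daughters 41.6, 49.2 and 60.5). The daughters had themselves eaten a commercial diet, and they are called lard or corn oil daughters below, after the diet of the father. Both diets are high in fat, and fathers on a control diet are not analysed here, so each comparison sets corn oil against lard. Sperm was taken from the cauda epididymis after lysis of somatic cells, whereas the total mammary gland holds epithelium, fat, connective tissue and blood cells. The labels describe single animals and the description of the series speaks of pooled RNA, so the p-values measure the spread among these samples, 3 in each of 4 groups, which may be technical. The wells carry numbers that no table used here pairs with miRNA names. Assays are therefore named by well number, no sequence can be shown, and neither tissue could be checked against its marker miRNAs.

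MicroRNAs (miRNAs) are short RNAs that guide silencing proteins to messenger RNAs and lower their translation or stability. Some are made in nearly every cell type, whereas others mark a lineage such as epithelium, muscle or germ cells, and mature sperm, which hardly transcribe, carry miRNAs from spermatogenesis and from the epididymis. In quantitative PCR, assays with an early and steady Ct in every sample are the usual candidates for a common reference, against which other miRNAs are expressed.

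Daughters 49.2 and 60.5, both with corn oil-fed fathers, stood apart before any comparison was made. Of their wells with a Ct, 43.6% and 52.5% lay within 0.05 cycles of a whole cycle, against 14.3% to 22.9% in the other 10 samples and 10% if the fractions were spread evenly. The same held for the 54 assays, of which 23 and 27 lay at a whole cycle in these daughters and 6 to 13 in each of the other samples. Their share in the spread, in the second card and in the diet comparisons is given below by leaving both out, a setting chosen after the values were seen. Among the sperm samples rat 9 stood apart, with the 2 reference wells of a card at a mean Ct of 25.2 and 24.6, against 19.2 to 21.3 and 19.4 to 21.02 in the other 5 males. The number of wells with a Ct, the nearest measure of depth that these data hold, was 475 to 494 in sperm and 398 to 470 in the mammary gland.

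**Figure D1:**
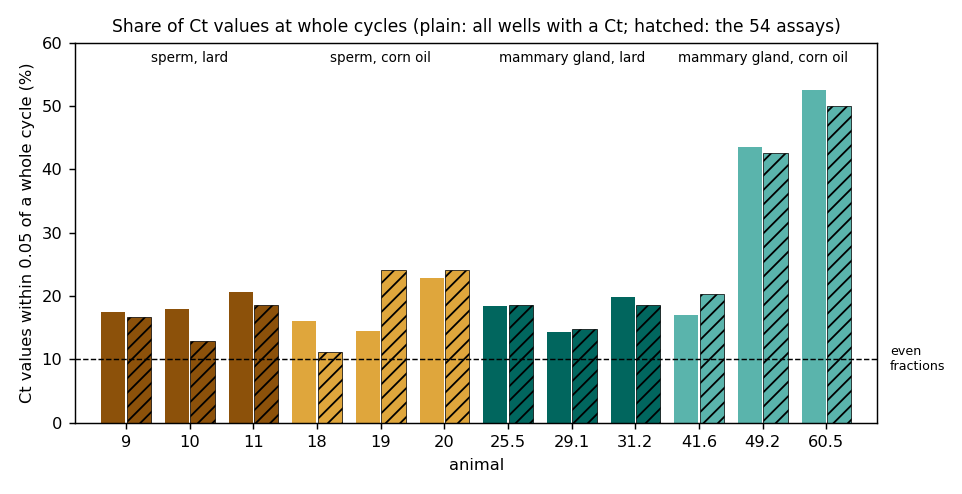
Share of Ct values within 0.05 of a whole cycle (percent, y axis) in each of the 12 samples (x axis, animal number, coloured by group), for all wells with a Ct (plain bars) and for the 54 assays (hatched bars). The dashed line marks the 10% that evenly spread fractions would give, and daughters 49.2 and 60.5 stand at 43.6% and 52.5% of all wells.

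Of the 756 wells, 293 had a Ct in all 12 samples (190 and 103 on the cards), and 172 of these had a mean Ct under 26 in sperm. Adding the limit in the mammary gland left 102, and adding the limit on the gap between tissues left 54. In sperm the mean Ct of the 54 assays ran from 16.29 to 25.96 with a median of 23.1, and in the mammary gland from 16.69 to 25.98 with a median of 23.4. The mean was later in the mammary gland for 35 assays and earlier for 19, with a median gap, sperm minus mammary gland, of -0.38 cycles. The order of the assays by Ct depends also on the primers and preamplification of each, so that a level is compared here within an assay and an order is given as measured.

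Just inside the sperm limit lay well 745, with a mean Ct of 25.96, and the nearest well outside was well 109, with 26.60. At the mammary gland limit, well 625 was inside with 25.98 and well 623 outside with 26.02. At the limit on the gap, well 2 was inside with 1.94 cycles and well 4 outside with 2.00. The wells at the limits on the mammary gland mean and on the gap lay closer together than those at the sperm limit.

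The earliest signal was that of well 103. Its Ct in sperm was 16.96, 16.69 and 15.97 in lard-fed and 15.99, 16.37 and 15.75 in corn oil-fed animals. In the mammary gland it was 16.86, 18.33 and 15.97 in the lard daughters and 16.42, 14.99 and 17.56 in the corn oil daughters. The groups overlapped in both tissues, and both the earliest value (daughter 49.2) and the latest (daughter 29.1) were in the mammary gland. Well 75 was the next, with a mean Ct of 17.4 ± 0.786 in sperm and 17.9 ± 1.41 in the mammary gland (SD, n = 6 each). Well 29 followed with 17.9 ± 0.515 and 18.4 ± 0.712 (SD, n = 6 each). Measured in the same samples, well 75 was the earlier of these wells in 10 of 12.

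**Figure D2:**
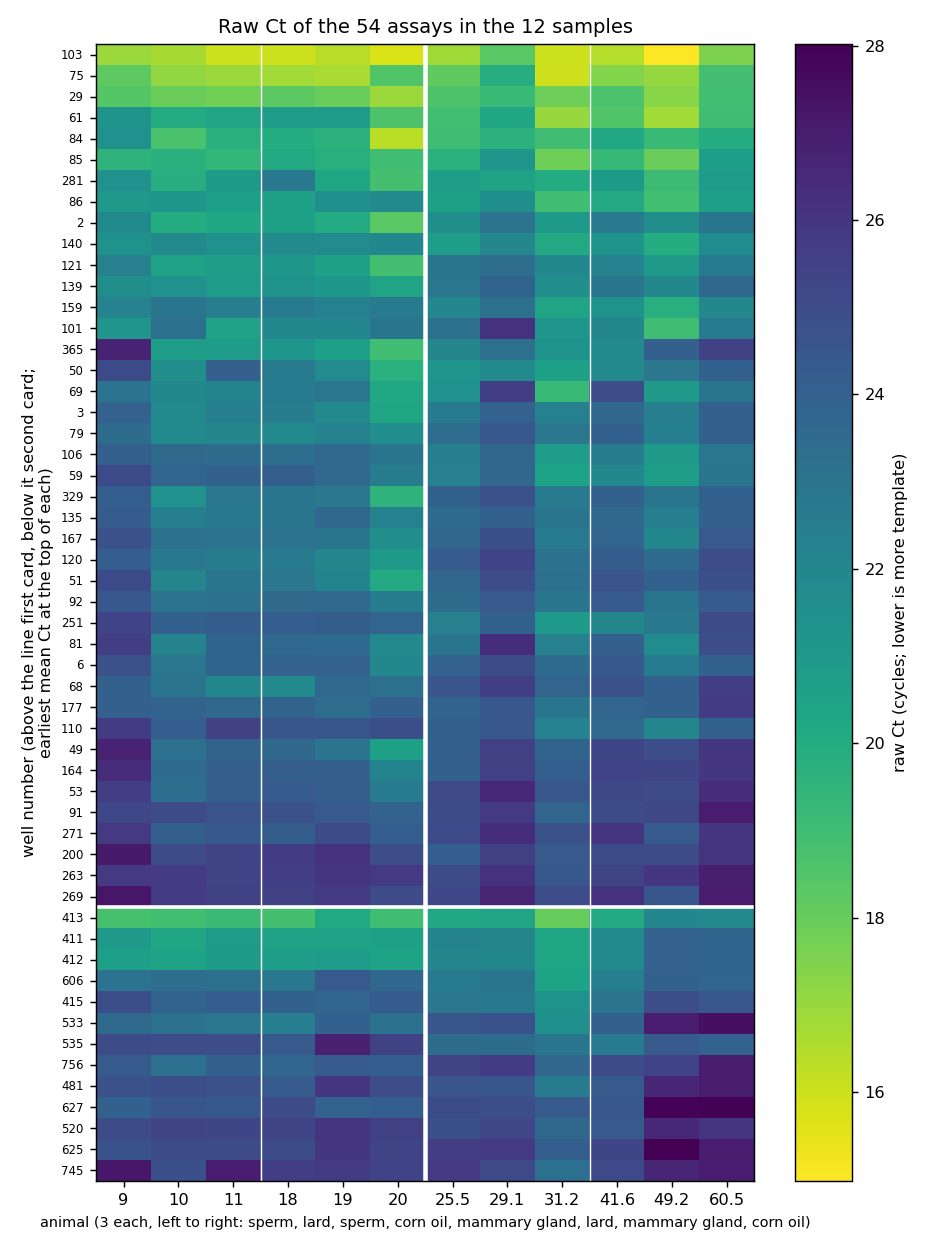
Raw Ct (colour, cycles, dark is late) of the 54 assays (rows, well number, earliest mean at the top of each card, with a white line between the cards) in the 12 samples (columns, 3 animals per group). Well 103 has the earliest values, between 14.99 and 18.33, and the assays of the second card darken in daughters 49.2 and 60.5.

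Early in both tissues did not mean the same place in both. Each assay was ranked by Ct among the 756 wells of its sample, with 1 as the earliest. The median rank of an assay over 6 samples ran from 17 to 237 in sperm (median over the 54 assays 119.5) and from 7 to 128 in the mammary gland (median 65.25). All 54 had an earlier median rank in the mammary gland, by 10 to 144.5 places. Fewer wells were early there, 126 with a mean Ct under 26 against 229 in sperm, so that the choice of assays with like Ct in both tissues fixes much of this direction. Of the earliest 20 wells by mean Ct, 2 were among the 54 assays in sperm and 7 in the mammary gland, and of the earliest 50 wells 8 and 21.

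Well 103 stayed between rank 2 and rank 19 in every sample, well 75 between 8 and 38 and well 29 between 9 and 30. These 3 were the assays within the first 50 wells of all 12 samples, and 15 assays lay within the first 100 of all 12. Of all 54 assays, well 535 moved most, from rank 49 in daughter 29.1 to rank 273 in rat 19. Ranks are free of any reference assay, but they mix the cards, which were run as separate reactions.

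**Figure D3:**
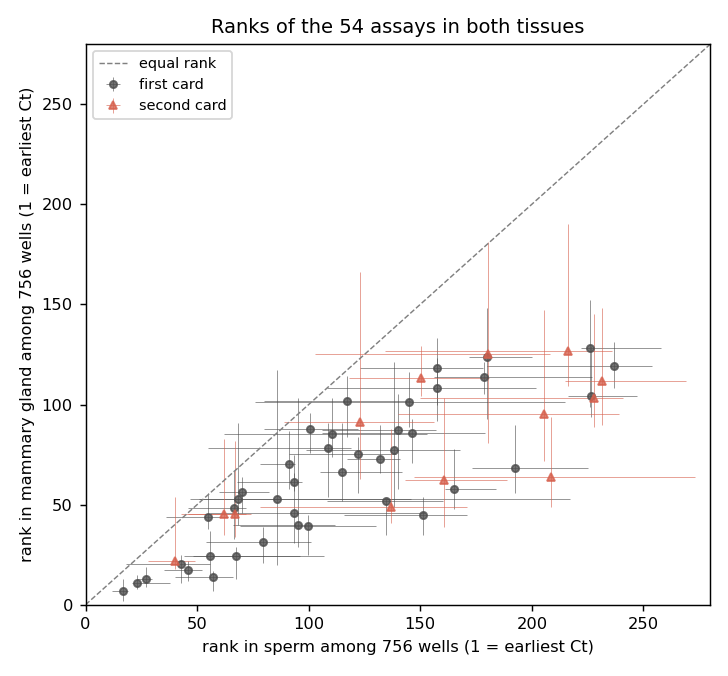
Median rank of each of the 54 assays among the 756 wells in the mammary gland (y axis) against that in sperm (x axis), with 1 as the earliest Ct, bars from the lowest to the highest rank over the 6 samples of a tissue, circles for the first card and triangles for the second. All 54 points lie below the dashed line of equal rank.

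The raw Ct of the 54 assays varied less in sperm than in the mammary gland. The SD over the 6 samples had a median of 0.718 cycles in sperm and 1.03 in the mammary gland, and it was larger in the mammary gland for 36 of the 54 assays. The 293 wells measured in every sample had medians of 0.895 and 1.34, but they include later wells that the limits on mean Ct kept out of the 54. Most of the gap between the tissues was on the second card, where the median SD of its 13 assays was 0.435 in sperm and 1.36 in the mammary gland and 12 of the 13 had the larger SD in the mammary gland. On the first card the medians were 0.842 and 0.885, and 24 of 41 had the larger SD in the mammary gland. Without daughters 49.2 and 60.5 the median SD in the mammary gland was 0.846 over the 54 assays, with 0.831 for the first card and 0.859 for the second, and 34 of the 54 had the larger SD there.

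Raw Ct includes how much RNA entered the reaction, which moves all assays of a sample together. Stability relative to one another was therefore measured by the geNorm value M, the mean, over all partners, of the SD of the Ct difference between an assay and a partner, low values being the most stable. Over the 12 samples M of the 54 assays among themselves had a median of 1.29 and ran from 0.965 to 1.97. The 293 measured wells among themselves had a median of 2.05, with values from 1.66 to 6.41, but the limit on the gap between tissues lowers M of the chosen assays by design. Within one tissue, which that limit does not touch, the median M was 0.904 in sperm and 0.967 in the mammary gland. Among partners of the same card the median was 1.16 for the first and 1.00 for the second card, against 1.25 and 1.36 among all 54.

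The most stable assay was well 92, with an M of 0.965. Its Ct in sperm was 24.5, 23.1 and 23.1 in lard-fed and 23.5, 23.6 and 22.5 in corn oil-fed animals. Its mammary gland values were 23.4, 24.4 and 22.9 in the lard daughters and 24.3, 23.0 and 24.3 in the corn oil daughters. All groups overlapped, and the latest value was in rat 9. Wells 91 (M of 1.00) and 29 (M of 1.01) came next. This order is only that of M over both tissues and both cards. Among assays of the same card, the lowest M was 0.870 on the first card (well 92) and 0.818 on the second (well 625). Within sperm well 92 had 0.726 against a lowest of 0.725, and within the mammary gland 0.838 against a lowest of 0.764. For well 29, M was 0.750 within sperm, 0.885 within the mammary gland and 0.906 among the assays of its own card.

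The least stable was well 365, with an M of 1.97. In sperm its Ct was 26.8 in rat 9 but 20.7 and 20.9 in the other lard-fed male rats and 21.2, 20.6 and 19.0 in the corn oil-fed ones. Its mammary gland values were 22.0, 23.2 and 21.4 in the lard daughters and 21.8, 24.0 and 25.4 in the corn oil daughters. Rat 9 was far later than the other males, and daughters 49.2 and 60.5 were the latest in the mammary gland. Recomputed over the remaining samples, its M was 1.58 without rat 9, 1.84 without both daughters and 1.06 without all 3 animals. Wells 101 (M of 1.90) and 535 (M of 1.70) followed, of which well 535 was among those nearest the limit on the gap, with a mean Ct of 25.3 ± 0.846 in sperm and 23.4 ± 0.611 in the mammary gland (SD, n = 6 each).

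Some assays kept a nearly fixed distance. Wells 411 and 412, chosen here after the values were seen, differed by -0.31 to 0.30 cycles over the 12 samples, with an SD of the difference of 0.167. Both were earliest in daughter 31.2 (20.3) and latest in daughter 49.2 (23.9). The next closest pair, wells 92 and 135, had an SD of the difference of 0.271, and the median over all 1431 pairs was 1.28.

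The samples moved the assays in blocks, and the blocks differed between the cards. In sperm, rat 9 had the latest Ct of the 6 animals for 37 of the 54 assays, 33 of them on the first card, and rat 20 the earliest for 32, with 31 on the first card. The median Ct of the 41 assays of the first card was 24.1, 22.4 and 22.8 in rats 9, 10 and 11 and 22.7, 22.8 and 21.8 in rats 18, 19 and 20. On the second card the 6 medians lay between 23.9 and 24.3, closer together than on the first.

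Among the glands, daughter 31.2 had the earliest Ct for 34 assays, 12 of the 13 on the second card among them. Daughter 29.1 had the latest for 27, all on the first card. On the second card, daughters 49.2 and 60.5 had the latest Ct for all 13 assays (8 and 5), and the medians were 24.5, 24.5 and 22.7 in the lard daughters and 24.0, 25.4 and 26.01 in the corn oil daughters. On the first card daughter 49.2 had instead the earliest Ct for 17 assays, with a median of 22.4. The cards of this daughter thus went in opposite directions, and the part of its values at whole cycles in this was not tested.

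**Figure D4:**
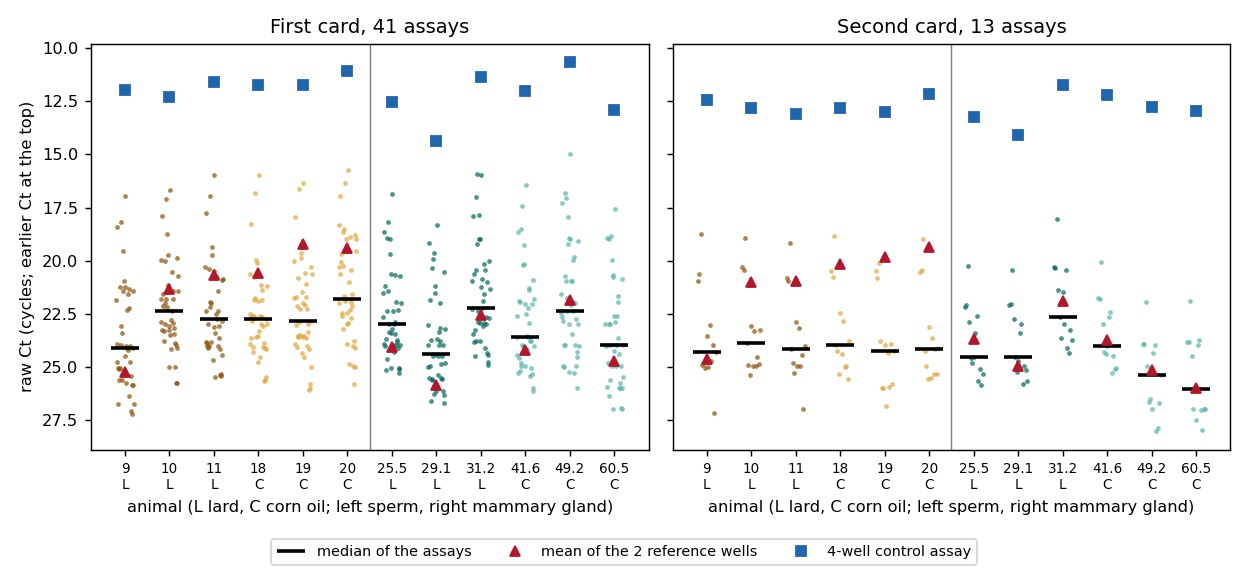
Raw Ct (y axis, cycles, earlier at the top) of the 54 assays (points) in each sample (x axis, animal number, L lard, C corn oil) on the first (left) and second card (right), with their median (black bar), the mean of the 2 reference wells (triangle) and the 4-well control assay (square). In sperm the reference wells move from 25.2 in rat 9 to 19.2 in rat 19 on the first card, while the median of the assays stays between 24.1 and 21.8.

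For the diet comparisons, the Ct of an assay was subtracted from the mean Ct of the controls selected for that card in that sample, which gives log2 relative expression (a change of 1 is 2 times the template). The controls of a card are a 4-well assay and 2 single reference wells, from which the geNorm procedure keeps the most stable pair. In sperm both cards kept the 2 reference wells. The Ct of that pair itself was 22.4 ± 2.45 after lard and 19.7 ± 0.753 after corn oil on the first card (SD, n = 3 each), a difference of -2.68 cycles, with -2.41 on the second. The 4-well assay differed by -0.45 and -0.10.

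In sperm, none of the 54 assays passed an unadjusted p at or below 0.05 in limma in either direction, and none had an adjusted p under 0.1, as was so for 0 of the 490 wells tested. Relative to the selected controls all 54 nevertheless had a difference, corn oil minus lard, below 0, with a median of -2.26, a range from -3.30 to -0.17 and a median standard error of 1.30. The direction was shared by the cards as a whole, since over all 490 assays tested in sperm the median was -2.19 and 91.0% lay below 0, and 11.2% of the 490 were lower and 0.408% higher at that p. For 26 of the 54 (48.1%) all corn oil values were below all lard values, against 42.9% of all tested, and for 0 of the 54 all were above, against 0%. In tissue RNA, fewer cells of a type and less RNA per cell cannot be told apart, and here nor can a change of the assays and a change of the reference. The per-sample median over the 54 assays was 1.05, -1.64 and -2.25 in rats 9, 10 and 11 and -2.37, -3.86 and -2.68 in rats 18, 19 and 20, so that rat 9 lay far above the others, and without it the median difference was -1.18.

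Well 625, on the second card, came nearest to the threshold. Its log2 relative expression was -0.11, -3.96 and -4.00 in lard-fed and -4.81, -6.11 and -5.98 in corn oil-fed male rats, without overlap. The difference was -2.95 (standard error 1.34, limma adjusted p = 0.234), and without rat 9 it was -1.66 (limma adjusted p = 0.382). Its raw Ct was 24.73, 24.97 and 24.97 in lard-fed against 24.99, 25.95 and 25.35 in corn oil-fed male rats, so that most of the difference came with the reference wells.

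On raw Ct, with the sign turned so that higher is more template, the median difference of the 54 assays in sperm was 0.36 with a median standard error of 0.66. Of the 54, 39 lay above 0 and 15 below. This lean was shared by all 490 tested, which had a median of 0.40 with 31.2% below 0. The cards differed, with a median of 0.49 for the 41 assays of the first card and -0.21 for the 13 of the second. None passed p at or below 0.05 in limma, against 0.612% lower and 1.02% higher of all tested. The diets did not overlap toward less template in corn oil for 1 assay, well 625 (2.86% of all tested), and toward more template for 1, well 167 (4.08% of all tested), both named after their values were seen. Relative to the mean Ct of the 54 assays of the same card, an alternative chosen after the values were seen, differences are balanced around 0 by construction (median -0.13), so that only an assay that departs from the others can pass. None did, against 1.84% lower and 1.63% higher of all tested. On the first card the direction in sperm thus depended on whether the reference wells entered, whereas on the second the median was below 0 with them and on raw Ct.

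The count in sperm also moved with the wells and samples that entered the fit. When the test was kept to wells below Ct 35 in each of the 6 samples, 26 of the 54 assays were lower at p at or below 0.05 in limma, against 43.5% of the 400 then tested, and 11 had an adjusted p under 0.1, against 22.5%. In one fit over all 12 samples 28 were lower, against 35.1% of the 490. Without rat 11 the number was 19 (35.2%), against 38.1% of all then tested, without rat 18 it was 3 (5.56%), against 13.2%, and without rat 10 it was 1 (1.85%), against 8.11%. In the fits with the stricter limit on Ct and over 12 samples the differences themselves are the same numbers, while the estimate of the spread changed and, with the stricter limit, fewer wells entered the adjustment.

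For the mammary gland geNorm kept the 4-well assay with 1 reference well for the first card and the reference pair for the second. The Ct of these controls differed, corn oil minus lard, by -0.77 cycles (first card) and 1.43 (second card). Of the 54 assays 7 (13%) reached a limma p of 0.05 or less with lower values in the corn oil daughters, and none was higher, against 23.2% lower and 0.75% higher of the 400 assays tested. None had an adjusted p under 0.1, against 0.25% of the 400, the smallest being 0.178. All 7 were on the first card. For 16 of the 54 (29.6%), all on the first card, all corn oil values were below all lard values, against 34.5% of all tested, and for 0 all were above, against 1.5%. The median difference was -0.60, with a median standard error of 0.53 and 47 of 54 below 0. All tested assays had a median of -1.03, with 84.5% below 0.

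Well 50 had the lowest difference of the 7. Its log2 relative expression was -4.66, -3.70 and -5.10 in the lard daughters and -5.66, -8.18 and -7.02 in the corn oil daughters. The groups did not overlap, and daughters 49.2 and 60.5 were the lowest. The difference was -2.47 (standard error 0.78, limma adjusted p = 0.178). Its raw Ct was 21.2 ± 0.608 and 22.9 ± 1.03 (SD, n = 3 each) and did not overlap either, in a direction opposite to that of the controls of its card, though on raw Ct the limma adjusted p = 0.639. In sperm the same assay differed by -0.48 (standard error 1.31, limma adjusted p = 0.746).

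Well 164 was the next. Its log2 relative expression was -7.43, -7.41 and -8.58 in the lard daughters and -9.17, -10.59 and -9.03 in the corn oil daughters. The difference was -1.79 (standard error 0.63, limma adjusted p = 0.192), again without overlap. On raw Ct the groups of this assay overlapped, at 23.98, 25.53 and 24.10 against 25.42, 25.27 and 25.97.

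**Figure D5:**
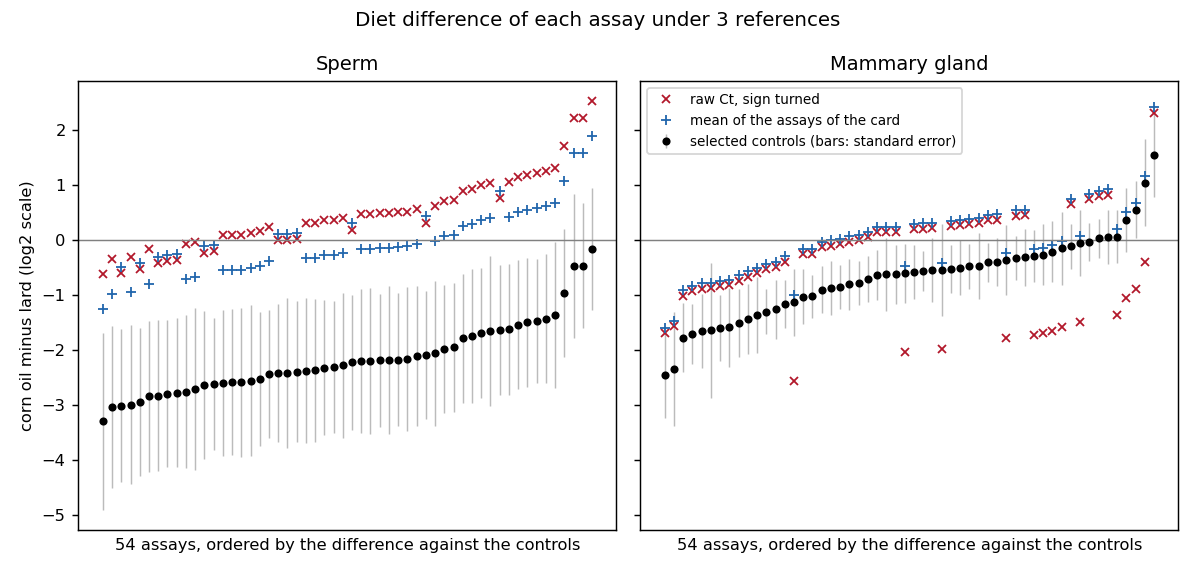
Difference in log2 relative expression, corn oil minus lard (y axis), of each of the 54 assays (x axis, ordered by the black points) in sperm (left) and the mammary gland (right), relative to the selected controls (black, bars are the standard error), on raw Ct with the sign turned (crosses) and relative to the mean of the assays of the card (plus signs). In sperm the medians are -2.26 and 0.36, and in the mammary gland -0.60 and -0.33, while the plus signs are centred near 0 by construction.

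On raw Ct the median difference of the 54 assays in the mammary gland was -0.33 with the sign turned, but -0.013 for the first card and -1.66 for the second. None passed p at or below 0.05 in limma, against 7.5% lower and 0.25% higher of all tested. Wells 50 and 415 had less template in every corn oil daughter than in every lard daughter (8.5% of all tested), and for 0 the reverse held (0.25% of all tested). Without daughters 49.2 and 60.5, which leaves daughter 41.6 against the lard daughters, the medians were -0.16 for the first card and -0.31 for the second.

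Relative to the mean Ct of the assays of the same card the differences are again balanced around 0 by construction (median 0.034). Unadjusted p at or below 0.05 in limma was met by well 50 (-1.60), which was lower, against 9% of all tested, and by wells 101 (2.41) and 159 (0.89), which were higher, against 1.5%. Each had an adjusted p of 0.445, and the standard errors were 0.61, 0.92 and 0.34. Well 50 was therefore below its fellow assays as well as below the controls. Against the selected controls it no longer met that threshold when daughter 29.1, 49.2 or 60.5 was left out alone, with differences of -2.07, -1.85 and -2.43. Without both 49.2 and 60.5 it differed by -1.17 (limma adjusted p = 0.767), and none of the 54 assays passed, against 6.82% of all then tested. That fit leaves 1 sample in the corn oil group, assumed to vary like the lard samples.

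The number of lower assays in the mammary gland also hung on the other samples and on the control. Without daughter 25.5 it was 1 (1.85%), against 10.6% of all then tested, without 49.2 it was 1, against 10.5%, and without 60.5 it was 4 (7.41%), against 14%. Without daughter 29.1 it was 0, against 11.9%. Without daughter 41.6, 6 assays (11.1%) had an adjusted p under 0.1, against 18.6%. With the 4-well assay alone as reference, 20 were lower at p at or below 0.05 in limma, against 43.2% of all tested, and 14 had an adjusted p under 0.1, against 34%. When the test was kept to wells below Ct 35 in each of the 6 samples, 13 were lower, against 36% of the 289 then tested, and 5 had an adjusted p under 0.1, against 22.1%. In each of these settings the share of the 54 assays was below that of all tested assays.

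Ranks gave the diet comparison without any control. In sperm the rank was later in every corn oil sample than in every lard sample for 1 of the 54 assays, well 756, against 4.9% of all tested, and earlier for 0, against 5.31%. Well 756 ranked 118, 145 and 149 in lard-fed and 152, 164 and 181 in corn oil-fed male rats. Within the wells of its own card, an alternative chosen after the values were seen, 2 assays ranked later (wells 135 and 200, 5.31% of all tested) and 2 earlier (wells 49 and 167, 6.53%). With single males left out, the number ranked later reached 10 (18.5%, without rat 10), against 13.3% of all tested, and the number ranked earlier reached 11 (20.4%, without rat 18), against 15.7%.

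Of the 54 assays 13 (24.1%) in the mammary gland ranked earlier in every corn oil daughter than in every lard daughter, against 13.8% of all tested, and 0 ranked later, against 3.5%. All 13 were on the first card. Well 101 moved most of them, from ranks 71, 117 and 59 in the lard daughters to 47, 20 and 34 in the corn oil daughters. It is named here after its values were known. Ranked within the card, 9 assays (16.7%) were earlier, against 14.5%, and 0 later, against 4.5%, and wells 68, 101, 110, 159 and 167 were earlier in both rankings, named as the full set of 5 after their values were seen. With fewer samples, groups that do not overlap are commoner among all wells. The 13 became 20 (37%) without daughter 29.1, against 20.2% of all tested, and 24 (44.4%) without daughter 41.6, against 33%, when 8 (14.8%) ranked later, against 17.5%. Without both daughters 49.2 and 60.5, 18 (33.3%) ranked earlier, against 29.8%.

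Whether the difference between the diets differed between the tissues was tested in one fit over all 12 samples, with the reference wells, which geNorm kept over all samples, as the control in both. Of the 54 assays 3 (5.56%) passed p at or below 0.05 in limma, against 4.85% of the 371 assays tested, and the smallest adjusted p was 0.571. The median of mammary gland minus sperm was 1.76 with a median standard error of 1.45, where all tested assays had a median of 1.33. The reference wells themselves differed, corn oil minus lard, by -2.68 (first card) and -2.41 cycles (second card) in sperm. In the mammary gland they differed by -0.55 and 1.43, so that the reference raises every interaction on both cards. On raw Ct with the sign turned, the median diet difference of the 54 assays was 0.36 in sperm and -0.33 in the mammary gland. Well 101 had the smallest unadjusted p, with a difference of -3.30 in sperm and 1.77 in the mammary gland and an interaction of 5.07 (standard error 1.83, limma adjusted p = 0.571). Wells 756 (interaction 3.16, standard error 1.29) and 535 (interaction 4.05, standard error 1.65) were the others, with the same adjusted p.

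In well 101 the raw Ct leaned to opposite sides in the tissues. In sperm it was 21.2, 23.2 and 20.5 in lard-fed and 21.9, 22.0 and 23.0 in corn oil-fed male rats. Its mammary gland values were 23.2, 26.1 and 21.2 in the lard daughters and 22.0, 19.0 and 22.6 in the corn oil daughters. The groups overlapped in both tissues, and on raw Ct its interaction was 2.93 (limma adjusted p = 0.585). For well 756 the sign itself turned on raw Ct, to -0.68 (limma adjusted p = 0.779).

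The count of 3 was 12 (22.2%) without rat 11, against 18.5% of all then tested, and 6 (11.1%) without rat 10, against 8.22%. It was 1 (1.85%) without each of rats 19 and 20 and daughters 25.5, 31.2 and 60.5, against 1.09% to 2.3%, and 0 without both daughters 49.2 and 60.5, against 2.79%. Against the selected controls 47 of the 54 had a difference below 0 in both, where 91.0% of all assays tested in sperm and 84.5% of those tested in the mammary gland were below 0.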

How the data were processed

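Total RNA was reverse transcribed with pooled primers, preamplified and run on 2 cards of 384 TaqMan assays per sample. Per the labels the RNA was extracted with Trizol, whereas the study's methods name a column kit. The authors deposited raw Ct for every well of the 12 samples without normalization, with 40 for an undetermined well. The software and threshold behind the Ct are not named in the sources used here. They also deposited a fold change per well and tissue (corn oil divided by lard), which are their own comparison and were not used. The identity of the control wells was carried over from an earlier analysis of these data.

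Log2 relative expression was taken by subtracting each Ct from the mean Ct of the controls that geNorm selected for the card, with 40 kept as it was. The test took wells below Ct 35 in 3 or more samples out of 6 (490 in sperm, 400 in the mammary gland, 371 in both), with limma 3.58.1 in R 4.3.3, two-sided, corn oil minus lard, on the samples of each tissue, and with the interaction in a fit over 4 group means. All 54 assays passed this filter, as their selection requires early Ct. P-values were adjusted by Benjamini-Hochberg over all tested wells, and both thresholds of the study (p at or below 0.05 and a false discovery rate under 0.1) are given. Groups came from the sample labels. The script was tested on simulated data. The assays, the rules for naming wells and the alternatives were chosen with earlier results of these data known. Named are the 3 assays with the earliest mean Ct, the 3 with the lowest and the 3 with the highest M, the extreme assays of each diet comparison, and the wells at each threshold.

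Each tissue was recomputed under 13 other settings and the interaction under 11, besides leaving out each sample in turn, and 4 settings were added after the data were seen. The number of samples limits the precision, and Ct values carry no count of molecules.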

Additional observations from a re-analysis of the deposited data

How the results depend on the processing

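The median difference over the 54 assays depended on the reference. In sperm it was -2.26 with the selected controls, reversed to 0.36 on raw Ct, and moved to -0.10 relative to the mean of all assays measured in every sample, -0.015 with the 4-well assay alone and -0.079 after quantile normalization. In the mammary gland it was -0.60, reversed to 0.39 relative to all measured assays and 0.23 after quantile normalization, and moved to -1.16 against the 4-well assay and to -0.33 on raw Ct. Relative to the 54 assays themselves the median is held near 0 by construction (-0.095 and 0.12 over both cards, -0.13 and 0.034 within the card), so its sign there carries no information.

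The number of assays lower in sperm, 0 in the main comparison, was 1 with all 3 controls (12% of all tested wells), 3 with every Ct above 35 set to 35 (18.4%), 16 with a trended and robust variance (22.2%, against 29.6% of the 54), 28 in one fit over 12 samples (35.1%), and 26 with 11 at an adjusted p under 0.1 when a Ct under 35 was required in every sample. Lower assays in the mammary gland numbered 7, but 0 on raw Ct, relative to all measured assays or to the 54 assays over both cards, with the pair of reference wells, after quantile normalization and without both daughters 49.2 and 60.5, where 3% to 8.75% of all tested wells were. They numbered 1 with all 3 controls (15% of all tested) and relative to the card (9%), 3 without the detection filter (9.52%), 13 (5 adjusted) with a Ct under 35 in every sample, and 20 (14 adjusted) with the 4-well assay alone. Higher assays, 0 in the main comparison, numbered 4 (7.41%) relative to all measured assays (3.5% of all tested) and after quantile normalization (7.5%), 2 relative to the 54 assays over both cards or within the card (1% and 1.5%), and 1 with the pair of reference wells or all 3 controls (0.75% each). By the methods' t-test 0 assays in sperm (8.98% of all tested) and 9 (21.5%) in the mammary gland were lower at the p threshold, and 0 in both after adjustment (0% and 0.25%). The interaction count of 3 became 10 with the 4-well assay (21.3% of all tested), 1 on raw Ct (7.01%) or with all 3 controls (3.77%), 6 (8.78%), with 1 at an adjusted p under 0.1 (2.29%), with a Ct under 35 in every sample, and 0 without both daughters. The interaction of well 756 reversed with the 4-well assay (-0.96) and on raw Ct (-0.68). Ranked within the card, the sperm counts were 2 later and 2 earlier. Some settings keep fewer wells or samples, and the cause of these shifts was not tested.

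The share of all tested wells moved with the counts when single samples were left out, and is given in brackets for all such fits. Lower assays in sperm ranged from 0 to 19 (3.94% to 38.1%) and the sperm median from -2.97 to -1.18. In the mammary gland lower assays ranged from 0 to 10 (10.5% to 29.8%), those with an adjusted p under 0.1 from 0 to 6 (0% to 18.6%), higher ones from 0 to 1 (0.254% to 1.08%) and the median from -0.79 to -0.49, and the interaction count ranged from 1 to 12 (1.09% to 18.5%). Rank counts ranged from 1 to 10 later (6.94% to 16.3%) and 0 to 11 earlier (6.94% to 15.7%) in sperm, and from 0 to 8 later (4.5% to 17.5%) and 13 to 24 earlier (15.8% to 33%) in the mammary gland. The reference mean over the assays, the values without both daughters or rat 9 and the rank alternatives were chosen after seeing the data. No paired analysis was possible because the sperm and mammary gland samples, and the diets, share no animal numbers.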

Other observations

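Of the wells early in both tissues, 48 with a Ct in all 12 samples were left out for a gap of 2 cycles or more between the tissue means. In 43 of them the mammary gland was later and in 5 sperm was later, with a range, sperm minus mammary gland, from -9.59 to 4.71 cycles and a median of -3.00. The 5 that were later in sperm, named after their values were seen, are wells 71, 90, 129, 182 and 282. Well 282 had a mean Ct of 24.6 ± 0.279 in sperm and 19.9 ± 0.785 in the mammary gland (SD, n = 6 each).

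A further 3 wells, also named after their values were seen, had 1 undetermined sperm sample each, wells 15, 17 and 296. They met the limits on level and gap with that sample counted as 40 in the sperm mean. These sperm means were 24.2, 25.9 and 23.3, against 23.3, 25.5 and 24.0 in the mammary gland. Without the undetermined sample each sperm mean was earlier, and the gap to the mammary gland exceeded the limit. Well 15 was undetermined in rat 11, while its Ct in the other 5 sperm samples lay between 18.2 and 24.1. Well 17 was undetermined in rat 10 and well 296 in rat 19, where the other 5 animals gave 21.8 to 25.7 and 18.7 to 21.0.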
